A study of Homo sapiens with 4 samples.

Results

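The genes of heme breakdown and iron handling described here are the heme oxygenases HMOX1 and HMOX2, the biliverdin reductases BLVRA and BLVRB, the ferritin chains FTH1 and FTL, the ferritin receptor NCOA4, and the iron transport proteins TFRC, SLC11A2 and SLC40A1. They were chosen by gene symbol for their roles, at a time when the change of HMOX1 and of other genes in these libraries was already known, so their values are a description and carry no test. Of the 10 genes, 9 had a row among the 16834 genes of the table, and SLC40A1, the ferroportin that exports iron from cells, was not analysed here. The question of the study was how neobractatin (NBT), a natural compound of Garcinia bracteata, and trametinib, an inhibitor of the kinase MEK, act alone and together on pancreatic ductal adenocarcinoma cells. Cells labelled MIA PaCa-2, wild type, an established human pancreatic cancer line, were left as control or were treated with 1 µM NBT, with 5 µM trametinib, or with 1 µM NBT and 5 µM trametinib together (the combination), each for 12 h. RNA of each condition was sequenced as 1 library, which gives no replicate check of any value and no measure of the variation between cultures.

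Heme oxygenases open the heme ring and release iron, carbon monoxide and biliverdin, which biliverdin reductases turn into bilirubin. HMOX1 is the inducible enzyme, known to respond to heme, oxidants and electrophiles, and HMOX2 is the constitutive one. Ferritin, a shell of FTH1 and FTL chains, stores iron that is not in use, and NCOA4 carries ferritin to the lysosome, where that iron is freed again. TFRC takes up iron bound to transferrin and SLC11A2 (DMT1) moves it across membranes. Iron regulatory proteins bind a hairpin in some of these mRNAs, the iron-responsive element, when iron is scarce; they then block translation of ferritin and protect the mRNA of TFRC from decay.

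The hairpins are shown because they tie both ferritin chains and TFRC to the same regulators. They were searched for as a C, any 5 bases and the loop CAGTGN, with the 5 bases before the loop pairing with the 5 after it (G with T allowed), on the transcript strand of the UTRs of each gene's longest coding transcript (GENCODE v29, GRCh38, the build of the deposited data). Each sequence is written 5′ to 3′ with the loop in capitals.
FTH1, 5′ UTR: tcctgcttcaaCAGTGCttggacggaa
FTL, 5′ UTR: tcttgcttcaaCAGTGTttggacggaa
TFRC, 3′ UTR, the first element: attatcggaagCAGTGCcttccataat
TFRC, 3′ UTR, the second element: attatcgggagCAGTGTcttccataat
TFRC, 3′ UTR, the third element: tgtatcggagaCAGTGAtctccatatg
TFRC, 3′ UTR, the fourth element: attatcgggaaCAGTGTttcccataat

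The FTH1 element lies at chr11:61967575-61967601 on the minus strand, in exon 1 of 4 of ENST00000273550.11. The FTL element lies at chr19:48965336-48965362 on the plus strand, in exon 1 of 4 of ENST00000331825.10. The TFRC elements lie on the minus strand in exon 19 of 19 of ENST00000360110.8, at chr3:196050980-196051006, chr3:196050576-196050602, chr3:196050511-196050537 and chr3:196050464-196050490. Among all genes, 0.117% held such a match in the 5′ UTR (22 of 18737) and 0.630% in the 3′ UTR (120 of 19046). HMOX1, HMOX2, BLVRA, BLVRB, SLC11A2 and NCOA4 held no match in the transcript searched, which says only that these letters were not in those windows. An element with another loop, or with an unpaired base in the stem, would be missed by this pattern. The search therefore does not show that SLC11A2, or any other of these genes, lacks an iron-responsive element. The TFRC elements are numbered among the matches only, and TFRC may hold others.

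The members of each pair share little sequence, which bears on whether reads can be told apart between them. HMOX1 (chr22:35380361-35394214, plus strand) and HMOX2 (chr16:4474690-4510347, plus strand) shared no run of 50 bases between the transcripts compared. The longest run they shared was 19 bases, in coding exon 3 of 5 of HMOX1 (chr22:35387070-35387088) and coding exon 4 of 6 of HMOX2 (chr16:4508098-4508116).
HMOX1 and HMOX2, shared run: agttcaagcagctctaccg

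FTH1 and FTL shared at most 18 bases. Ferritin genes have many processed pseudogenes, and 40.4% of the 50-base windows of the FTH1 transcript occurred in at least 1 of 25 annotated pseudogenes, against 18.3% for FTL and 16 pseudogenes. None of these pseudogenes had a row in the table, and how the authors' counting placed reads that match them was not tested. At the 2 decimals deposited, the estimated counts of HMOX1, BLVRB, FTL, TFRC and NCOA4 were whole numbers in all 4 libraries, that of BLVRA in 1, and those of FTH1, HMOX2 and SLC11A2 in none.

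The deposited estimated counts summed to between 18776212 and 19614763 per library. The 9 genes were well covered, since the lowest count of any of them was the 121 reads of HMOX1 in the control library. A gene was called between 2 libraries where its counts differed by an exact binomial test (Benjamini-Hochberg adjusted value at most 0.05) and its log2 ratio was at least 1 in size, that is 2-fold; this compares libraries, not conditions, and no p-value is given. The 95% intervals given (Clopper-Pearson, on the ratio) cover counting error only, because each condition has 1 library. They treat reads as independent molecules, which PCR copies are not. All comparisons with control use the same control library. All 8 listed genes of MAPK output were called lower in both libraries with trametinib, with a median log2 fold change of -3.43 with trametinib and -3.53 with the combination. The summed epithelial markers were mostly the keratins KRT8 and KRT18. In CPM (reads scaled to the library sum), the sum was 5983 in control, 5217 with NBT, 3138 with trametinib and 2399 with both drugs. The fall with trametinib was in the keratins: EPCAM had 3502, 3275, 3113 and 3383 reads in the same order. CDH1, with 3912, 2539, 4086 and 2804, was lower only in the libraries with NBT. The part of these markers in the results below was not tested. Some markers went against the labelled line: CDH1 had between 2539 and 4086 reads, VIM between 202 (control) and 500 (combination), and CDKN2A, whose locus is known to be deleted in MIA PaCa-2 and which was looked up after other values were seen, between 2643 and 3524. The titles name MIA PaCa-2 for all 4 libraries, but the cell line entry of the labels carries a higher line number in each treated library. The cells are called here by the titles only.

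HMOX1 was the gene of this pathway with the widest range. It had 121 reads in the control library, 4825 with NBT, 382 with trametinib and 44631 in the combination, which on the TPM scale (scaled to transcript length and library) were levels of 8.33, 307, 25.6 and 2866. The combination library was thus far above either single drug, and the NBT library far above the trametinib library. The log2 fold change of HMOX1 was 5.26 with NBT (interval 5.01 to 5.54), 1.64 with trametinib (1.35 to 1.95) and 8.46 with the combination (8.21 to 8.73), that is, it rose 38.4-fold, 3.12-fold and 352-fold. Among the 11367 genes with at least 50 reads in some library, its log2 rise ranked 1 with the combination, 3 with NBT and 125 with trametinib. By TPM, it went from rank 8808 of all genes in the control library to rank 37 with the combination. In bulk RNA, a change in the share of cells that express a gene and a change in the RNA per cell cannot be told apart.

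HMOX1 is also known from macrophages and from cells that break down red cells. Of the leukocyte markers, 3 of 4 had a row, and their sum was between 80.4 and 124 CPM and lower with the combination (87.3 CPM) than in the control library (109.9 CPM). CD68, a lysosomal protein not limited to macrophages, made up nearly all of it, whereas PTPRC had between 8 and 17 reads and CD14 2 or 3. Of the erythroid markers, 1 of 4 had a row, SLC4A1, with between 12 and 20 reads.

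HMOX2 was not called in any comparison. Its TPM was 147 in the control library, 152 with NBT, 78.2 with trametinib and 112 with both drugs, so the trametinib library was the lowest. Its log2 fold change against control was 0.12 with NBT (interval 0.03 to 0.21), -0.90 with trametinib (-1.01 to -0.80) and -0.35 with the combination (-0.44 to -0.25), none of them called. The TPM ratio of HMOX1 to HMOX2 was 0.0565 in the control library, 2.02 with NBT, 0.328 with trametinib and 25.5 in the combined treatment. The inducible enzyme was therefore the less abundant of the pair in the control and trametinib libraries and the more abundant in both libraries with NBT.

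**Figure D1:**
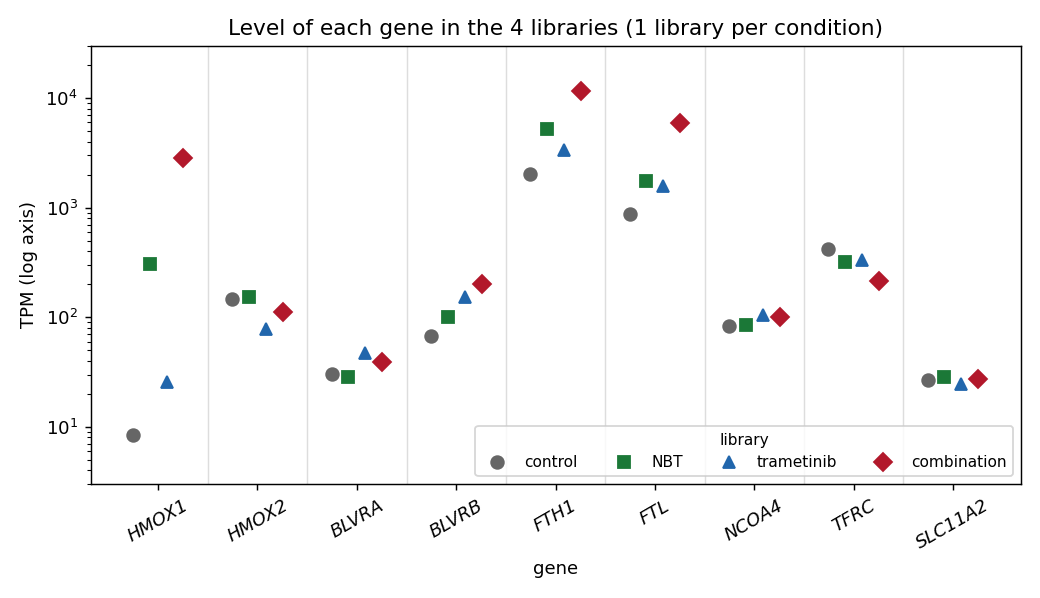
Level of each of the 9 genes in TPM (log axis) in the control, NBT, trametinib and combination libraries, 1 point per library. HMOX1 spans 8.33 to 2866 TPM, FTH1 and FTL are highest with the combination, and SLC11A2 stays between 24.8 and 28.4 TPM.

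The next enzymes of the pathway differed from each other. BLVRB, a reductase of biliverdin IX beta that also reduces flavins, had 491 reads in the control library, 785 with NBT, 1144 with trametinib and 1566 with both drugs. Every treated library was above control, and the combination was the highest. BLVRB rose with trametinib (log2 fold change 1.21, interval 1.05 to 1.36) and with the combination (1.61, 1.46 to 1.76), and its value with NBT, 0.63 (0.46 to 0.79), was below the limit. BLVRA, which makes bilirubin from biliverdin IX alpha, had 300 reads in the control library, 304 with NBT, 483 with trametinib and 415 in the combination. None of its log2 fold changes passed the limit: they were -0.03 with NBT (interval -0.27 to 0.20, which holds 0), 0.67 with trametinib and 0.40 with the combination. In TPM, BLVRB was 2.24 times as abundant as BLVRA in the control library and 5.18 times with the combination.

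HMOX1 and the enzymes downstream of it did not move in proportion. The TPM ratio of HMOX1 to BLVRB was 0.123 in the control library, 3.06 with NBT, 0.166 with trametinib and 14.2 with both drugs. The combined level of both heme oxygenases was 155.8 TPM in the control library, 459 with NBT, 103.8 with trametinib and 2978 in the combined treatment. With trametinib alone it was lower than in control, since HMOX2, the larger part, was lower there.

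Both ferritin chains were highest with the combination. FTH1, the chain that oxidises iron as it enters the shell, had 22786 reads in the control library, 62854 with NBT, 38760 with trametinib and 138087 with both drugs. FTL, the chain that supports formation of the iron core, had 6983, 15244, 12998 and 50832 reads in the same order. The libraries fall in the same order for both chains, with control lowest, then trametinib, NBT and the combination.

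FTH1 rose by 1.41 on the log2 scale with NBT (interval 1.39 to 1.44) and 2.54 with the combination (2.52 to 2.56), and FTL by 1.08 (1.04 to 1.12) and 2.80 (2.76 to 2.84). With trametinib alone, FTH1 was at 0.75 (0.73 to 0.78) and FTL at 0.88 (0.84 to 0.93), beyond counting error and below the limit. These were among the most abundant mRNAs of the cells: by TPM, FTH1 went from rank 64 in the control library to rank 6 with the combination, and FTL from rank 144 to rank 9. In CPM, FTH1 gained 5826 with the combination, the largest gain of any of the 16834 genes, with HMOX1 at rank 7 and FTL at rank 8. Both chains together took 0.159% of all reads in the control library, 0.402% with NBT, 0.273% with trametinib and 0.963% in the combination. The FTH1 to FTL ratio in TPM was 2.33 in the control library, 2.94 with NBT, 2.13 with trametinib and 1.94 with both drugs, so the H chain was the more abundant mRNA in all 4 libraries.

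NCOA4, the receptor that brings ferritin to autophagosomes, was not called in any comparison. It had 2820 reads in the control library, 3114 with NBT, 3653 with trametinib and 3624 in the combined treatment. Its log2 fold changes were 0.09 with NBT (interval 0.02 to 0.17), 0.36 with trametinib (0.29 to 0.43) and 0.30 with both drugs (0.23 to 0.37). Every treated library was thus above control beyond counting error, by small amounts that all lay under the limit.

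TFRC, the transferrin receptor, was lowest where ferritin was highest. It had 19765 reads in the control library, 15994 with NBT, 16131 with trametinib and 10890 in the combination. The single-drug libraries lay close to each other and below control, and the combination lay below both. Its log2 fold change was -0.36 with NBT (interval -0.39 to -0.33), -0.31 with trametinib (-0.34 to -0.28) and -0.92 with the combination (-0.96 to -0.89), which was beyond counting error and just under the limit for a call. In CPM the decrease with the combination, -497, was the 25th largest of all genes. The TPM of both ferritin chains together divided by that of TFRC was 6.96 in the control library, 22.1 with NBT, 14.8 with trametinib and 81.1 with both drugs. Of the mRNAs with the hairpins shown above, FTH1 and FTL (5′ UTR) were above control in every treated library. TFRC (3′ UTR) was below control in each. Whether the hairpins have any part in these mRNA levels was not tested.

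SLC11A2, the transporter of ferrous iron across the endosomal and plasma membranes, had nearly even levels. Its reads were 1006 in the control library, 1176 with NBT, 973 with trametinib and 1135 in the combined treatment. Its log2 fold changes were 0.18 with NBT (interval 0.05 to 0.30), -0.06 with trametinib (-0.19 to 0.07) and 0.11 with the combination (-0.01 to 0.23). The last 2 intervals hold 0, so a difference was not detectable at this depth.

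Of the 9 genes, 3 were called higher with NBT (HMOX1, FTH1 and FTL), where 1.6% of all 15888 genes tested were. With trametinib 2 were called higher (HMOX1 and BLVRB), against 3.82% of 16197 genes, and with the combination 4 (HMOX1, BLVRB, FTH1 and FTL), against 4.73% of 16229. None was called lower in any of these, where 1.01%, 2.15% and 3.69% of all genes were. Their median log2 fold change was 0.18 for NBT (all genes tested, -0.01), 0.67 for trametinib (0.08) and 0.40 for the combination (0.05). Since HMOX1 was known to change when the genes were chosen, these counts are a description.

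**Figure D2:**
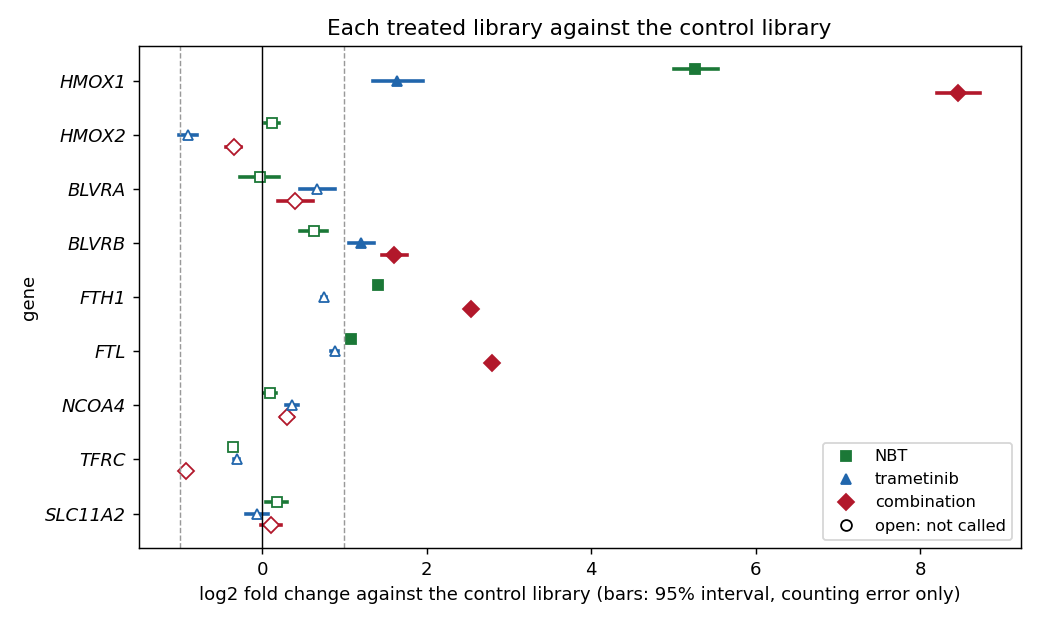
Log2 fold change of each gene against the control library for NBT, trametinib and the combination, with 95% intervals for counting error as bars; filled symbols are called genes and dashed lines mark a 2-fold difference. HMOX1 reaches 8.46 with the combination, FTH1 and FTL 2.54 and 2.80, while TFRC lies at -0.92.

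Set against the single-drug libraries, the combination was higher again for HMOX1 and ferritin. Against NBT, HMOX1 rose by a log2 fold change of 3.20 (interval 3.15 to 3.24), FTL by 1.72 (1.70 to 1.75) and FTH1 by 1.12 (1.11 to 1.14), so that 3 of 9 genes were called higher, where 2.38% of all genes were, and 0 lower, where 1.99% were. BLVRB was at 0.98 (0.86 to 1.11), just under the limit. Against trametinib, the same 3 genes were called higher, where 2.56% of all genes were, and 0 lower, where 3.55% were, with 6.82 for HMOX1 (6.67 to 6.97), 1.92 for FTL (1.89 to 1.95) and 1.78 for FTH1 (1.77 to 1.80). TFRC was at -0.57 against NBT and -0.62 against trametinib, neither of them called. BLVRA was at 0.44 against NBT and -0.27 against trametinib.

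HMOX1 with the combination exceeded the sum of what the single drugs gave. The log2 fold changes of NBT and trametinib added up to 6.90, and that of the combination was 8.46, a departure of 1.56, or 2.94-fold over the sum. Of the 11367 genes with at least 50 reads in some library, 0.897% had a departure of at least 1 above the sum and 1.43% of at least 1 below it, and HMOX1 ranked 33 from the top. FTL departed by 0.84 (rank 155) and FTH1 by 0.37 (rank 930), both below 1. HMOX2 departed by 0.44, where its value with the combination, -0.35, lay between those of the single drugs. BLVRB departed by -0.22, BLVRA by -0.24, NCOA4 by -0.15 and TFRC by -0.26, all between the 5th and 95th percentiles of these genes (-0.61 and 0.47), and SLC11A2 was at -0.00. These departures compare 4 single libraries, all through the same control, and the variation between cultures in them was not measured.

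**Figure D3:**
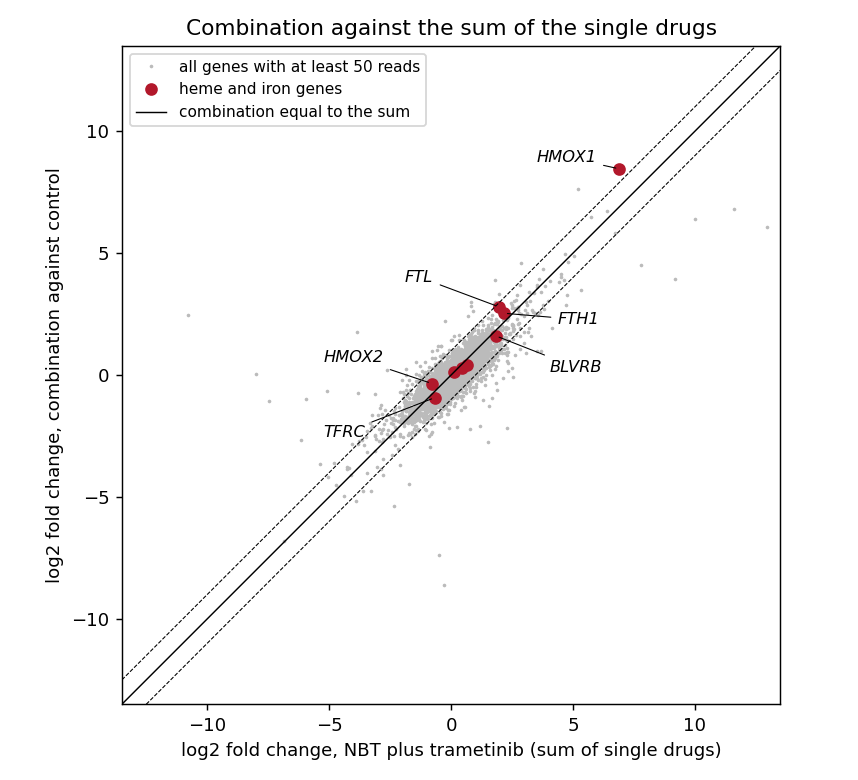
Log2 fold change of the combination against the sum of the log2 fold changes of NBT and trametinib, for 11367 genes (grey) and the 9 heme and iron genes (red); the solid line marks equality and the dashed lines a departure of 1. HMOX1, at 6.90 on the horizontal and 8.46 on the vertical axis, lies above the upper dashed line and the other 8 genes lie between the lines.

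Other genes of heme and iron metabolism were described from 5 lists. Of the 9 genes of heme synthesis, 0 were called in any comparison with control, nor by the 2-fold limit alone among genes with at least 10 reads. ALAS1, the rate-limiting enzyme of heme synthesis and known to be repressed by heme, had 1904 reads in the control library, 2407 with NBT, 1712 with trametinib and 2378 with both drugs. FECH, which inserts iron into the ring, had a log2 fold change of 0.69 with the combination. Of 16 genes of heme transport and binding with a row, 0 were called with either single drug, and 2 were called higher with the combination, where 4.73% of all genes were. These were ABCG2, an exporter known to carry porphyrins, with 327 reads in the control library and 691 with the combination (log2 fold change 1.02, or 0.99 and not called with TMM scaling), and SLC46A1, a folate and heme carrier with 7 and 23 reads, named after its values were seen. SLC48A1, which moves heme out of endosomes and lysosomes, was at 0.58 with NBT and 0.60 with the combination, not called.

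Of 17 genes of iron import, reduction and chaperoning, 1 was called higher with NBT, where 1.6% of all genes were. With trametinib 3 were called higher and 1 lower (all genes, 3.82% and 2.15%), and with the combination 2 higher and 2 lower (4.73% and 3.69%). LCN2, a secreted protein that binds iron carried by siderophores, was called higher with all 3 treatments. It had 11 reads in the control library, 69 with NBT, 27 with trametinib and 248 in the combination. The trametinib call (log2 fold change 1.24) was lost with TMM scaling (1.17) and with 5 added reads (0.99). The ferric reductases differed among themselves. STEAP3, the reductase of the endosome that works beside TFRC, had 1795 reads in the control library, 1227 with NBT, 2016 with trametinib and 928 with both drugs, and fell with the combination at the limit of the call (log2 fold change -1.01). STEAP1 fell with trametinib (-1.66) and with the combination (-1.16), and CYBRD1 was called higher with trametinib (1.05), a call that was lost with TMM scaling (0.98), and had 0.13 with the combination. STEAP4 with trametinib and LTF with the combination were the other calls, both of them genes with fewer than 50 reads in every library, named after their values were seen.

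Of 9 iron regulators with a row, 1 was called against control, where 4.73% of all genes were called higher with the combination. It was ZFP36, which is known to destabilise mRNAs such as that of TFRC, with 1238 reads in the control library and 2631 with the combination (log2 fold change 1.02, or 0.997 and not called with TMM scaling). EPAS1, a hypoxia-inducible factor with a hairpin of the same kind known in its mRNA, was at 0.91 with the combination against control, not called, and rose in the combination against trametinib (1.12), where 2.56% of all genes were called higher. The mRNAs of the iron regulatory proteins were near control: IREB2 was at -0.17 with NBT, 0.02 with trametinib and 0.01 in the combined treatment, and ACO1 at -0.23, 0.33 and -0.18. FBXL5, which marks IREB2 for degradation when iron is plentiful, was at -0.30 with the combination. Of 17 genes of iron-sulfur cluster assembly, 0 were called against control, nor by the 2-fold limit alone. Over all genes, 4.73% were called higher and 3.69% lower with the combination, and smaller shares with each single drug. The medians of these lists with the combination were 0.25 for heme synthesis, 0.18 for heme transport, 0.17 for iron import, 0.08 for iron regulation and -0.07 for iron-sulfur assembly, beside 0.05 over all genes.

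**Figure D4:**
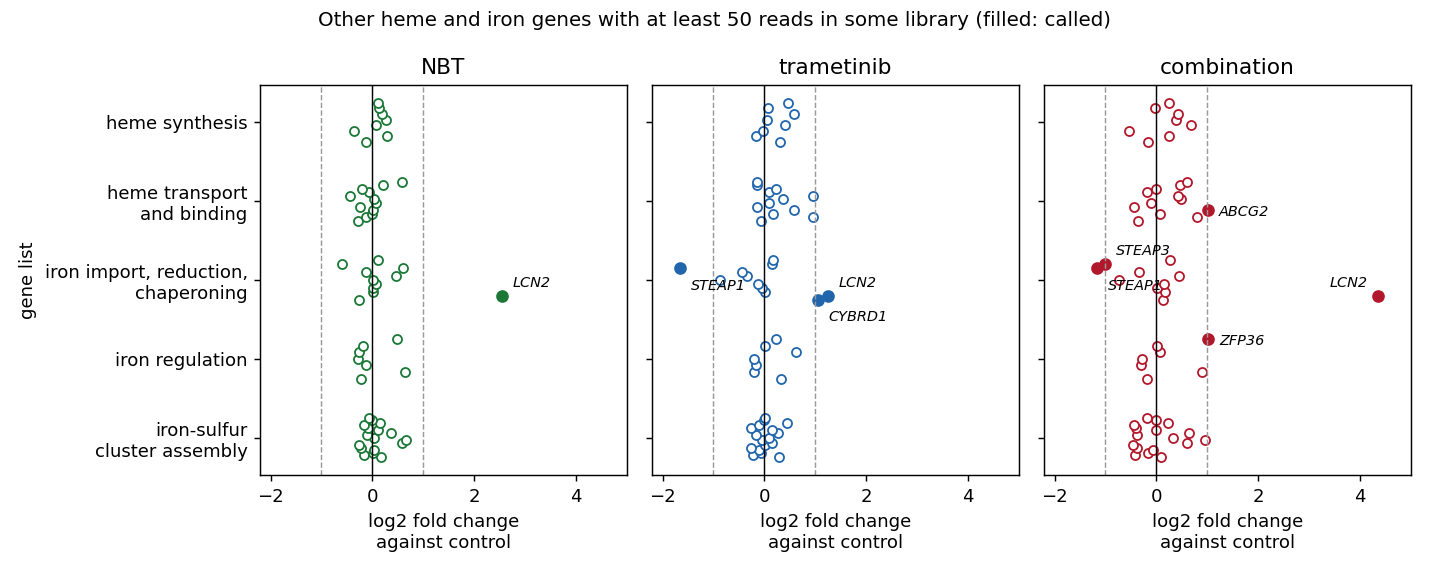
Log2 fold change against control of the other heme and iron genes with at least 50 reads in some library, by list, for NBT, trametinib and the combination; each point is 1 gene, filled where called, and dashed lines mark a 2-fold difference. LCN2 reaches 4.37 with the combination, and most other genes lie within the dashed lines.

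Of 13 transcription factors known to act on HMOX1, 0 were called with NBT (all genes, 1.6% higher and 1.01% lower). With trametinib 1 was called higher and 2 lower (3.82% and 2.15%), and with the combination 1 higher (4.73%). NFE2L2 (NRF2) was at 0.25 with NBT, 0.62 with trametinib and 0.82 with both drugs, its inhibitor KEAP1 at 0.05, 0.11 and 0.10, and the HMOX1 repressor BACH1 at 0.26, 0.03 and 0.53, none of them called. ATF3 rose with trametinib (1.68) and with the combination (3.02), and MAFF (-2.11) and FOS (-2.57) fell with trametinib. In the combination against trametinib, 5 of the 13 factors were called higher and 0 lower (all genes, 2.56% and 3.55%). These were FOS (2.77, with 14 reads in the trametinib library), MAFF (1.51), JUN (1.48), ATF3 (1.34) and MAFG (1.27). In the combination against NBT, 1 was called higher, ATF3 (2.10), and 1 lower, MAFF (-1.04), where 2.38% and 1.99% of all genes were. Of 12 listed NRF2 targets other than the heme genes, 7 were called higher with NBT (all genes, 1.6%), 2 with trametinib (3.82%) and 10 in the combination (4.73%). Among them, the cystine transporter SLC7A11 rose by 3.11 with NBT, 1.39 with trametinib and 4.14 with both drugs, each below the value of HMOX1 in the same comparison.

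Few genes had the pattern of HMOX1 over the 4 libraries. Of the summed CPM of HMOX1, 89.2% fell in the combination library, 9.73% in that of NBT, 0.790% in that of trametinib and 0.253% in control. Likeness was measured as the sum of absolute differences between 2 such splits divided by 2, over genes with at least 100 reads in some library and over 4 libraries. The closest genes, in order, were HTRA3 (4.54 points away), LURAP1L (6.32), CXCL2, CDRT4 (14.7) and MAP2 (15.5), beside a median of 64.4 points over 10661 genes. HTRA3, a secreted serine protease, had 0 reads in the control library, 6 with NBT, 1 with trametinib and 104 in the combined treatment, so that its split rests on few reads outside the combination. CXCL2, a chemokine that attracts neutrophils, had 23, 96, 43 and 594 reads in the same order. CDRT4, with 20, 0, 0 and 119 reads, lacked the NBT part of the pattern. FTH1 and FTL, with control levels already high, were not among the 5.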

How the data were processed

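RNA of 4 cultures was sequenced as 1 library per condition, and each library was assigned to its condition by the treatment in its label. For each gene and transcript the authors deposited an estimated count that is not normalised, a TPM value (scaled to transcript length and to a common sum) and an FPKM value (scaled to transcript length and to mapped fragments). Per the submitters' processing notes, Bowtie2 2.2.5, RSEM 1.2.8 and hg38 were used, and the sources used here do not say whether counting used strand, so reads from overlapping antisense genes may not be told apart. The FPKM values, deposited by the authors, were not used for any result.

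Estimated counts were rounded and scaled to the library sum (18776212 to 19614763), and log2 ratios were taken with 0.5 reads added. For calls, the counts of 2 libraries were compared gene by gene with a two-sided exact binomial test, adjusted by Benjamini-Hochberg over all genes with a read in either library, at limits of 0.05 and of 1 on the log2 scale, which follow the study's methods. The genes and lists were chosen with earlier results of these data known. Genes of a list were named where they were called against control and had at least 50 reads in some library, with others given for their role, and the 5 genes most like HMOX1 were named by their split over libraries. Hairpins and shared runs were found in GENCODE 29 transcripts (GRCh38). Alternatives were TMM (edgeR 4.0.16) and median-of-ratios scaling (DESeq2 1.42.0), TPM with 0.1 added, 5 added reads, summed transcript counts, other fold limits and a minimum of 10 reads. R 4.3.3, Python 3.11.15, numpy 2.4.6, scipy 1.17.1, pandas 2.3.3 and matplotlib 3.10.9 were used.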

Additional observations from a re-analysis of the deposited data

Results flagged for a closer look

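STEAP3, the endosomal ferric reductase, moved in opposite directions with trametinib depending on the other drug. The log2 fold change of trametinib was 0.15 without NBT (trametinib against control) and -0.42 with NBT (combination against NBT), each beyond counting error. Both are scaled to library sums. The interval of the small value of 0.15 was 0.06 to 0.25. The median over all genes in that comparison was 0.08, or 0.01 with TMM scaling. A shift of that size would take the lower end of the interval below 0. Opposite movement of STEAP3 beyond counting error is therefore stated for scaling to library sums only. DUSP4, a phosphatase used to check the labels, did so with NBT, which gave -0.97 without trametinib and 0.75 with it. Each value compares 2 single libraries, and the difference between them was not tested. None of the 9 heme and iron genes moved in opposite directions beyond counting error in this way.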

How the results depend on the processing

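With 1 library per condition, no library could be left out. No paired analysis was possible because each condition has 1 library. The planned addition of ferritin pseudogene counts to FTH1 and FTL was not run, since 0 such rows had counts to add. Over 5 alternatives of scaling, unit, added reads and counting level, the 45 log2 fold changes of the 9 genes kept their sign in all 225 values, 26 of which lay outside the counting interval, and the largest shift was 0.08; the departure of HMOX1 from the sum was between 1.56 and 1.61. TPM values added BLVRB to the genes called for the combination against NBT (1.01). Of 52 calls of list genes against control, recomputed after the data were seen, 7 were lost in some of these alternatives: ABCG2 and ZFP36 with the combination, STEAP4, CYBRD1 and LCN2 with trametinib, and PIR and ETV5 with NBT. Counts of the 9 genes moved most with the fold limit. At 4-fold, 1 of the 9 genes, HMOX1, was called with NBT, 0 with trametinib, 1 with the combination against NBT and 1 against trametinib, while 3 (HMOX1, FTH1 and FTL) were called with the combination against control. At 1.5-fold, 6 were called with trametinib, HMOX2 lower and HMOX1, BLVRA, BLVRB, FTH1 and FTL higher, and TFRC was called lower with the combination. Over all genes, 1.5-fold and 4-fold limits called 1092 and 116 with NBT, 1974 and 352 with trametinib, 3053 and 401 with the combination, 1496 and 251 with the combination against NBT, and 2375 and 252 against trametinib, where the 2-fold limit called 414, 966, 1366, 709 and 998. Depth limits the low genes named, among them SLC46A1, LTF, STEAP4, HTRA3, CDRT4 and, in the control and trametinib libraries, LCN2. It does not limit the 9 genes in this way, whose lowest count was 121. The spread between cultures is unknown for all of these genes.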

Other observations

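Transcript estimates of SLC11A2 and NCOA4 differed between libraries where the gene totals differed little. Of the estimated reads of SLC11A2, the transcript NM_000617.3 took 12.2% in the control library, 0.0247% with NBT, 52.5% with trametinib and 8.01% with both drugs. NM_001174128.2 took 63.0%, 78.3%, 20.2% and 73.4% in the same order, so its share was lowest where that of NM_000617.3 was highest. Both match the same GENCODE transcript (ENST00000644904.1), so a switch between them was not shown. Of NCOA4, NM_005437.3 took 16.3% in the control library, 1.22% with NBT, 36.3% with trametinib and 27.8% in the combination. NM_001145263.1 took 82.8%, 98.8%, 62.2% and 70.5%, again low where the other was high. These shares are the counting program's division of reads that transcripts share, their error is not given, and no test was made. HMOX1, BLVRB and FTH1 have 1 transcript each in the table, so nothing of this kind can be seen for them.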
